A study of Rattus norvegicus with 9 samples.

Results

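The genes described here encode the proteins of the cytosolic ribosome, measured as RNA in the brains of 9 male rats. A member was a locus of the deposited gene count matrix whose gene name has the form Rpl or Rps with a number and an optional paralog ending, or is Rplp0, Rplp1, Rplp2 or Rpsa, with the transcript on the same strand as the annotated gene. For a name with several loci, the locus of highest mean count was taken. A member also needed 10 or more expected counts in at least 3 of the 9 libraries. Of 114601 loci, 86 names fitted and 77 passed the minimum, 46 of the large and 31 of the small subunit. All 77 also passed the filter on low counts before testing and are among the 39057 loci tested.

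The rats carried a deletion of 618 bp, made with CRISPR/Cas9, in Lrap, whose transcript is described as potentially long and non-coding. There were 3 wild types, which were Wistar rats from Charles River, 3 heterozygotes (Lrap-/+) and 3 homozygotes (Lrap-/-) of the strain Crl:WI-Lrapem1Geh. All 9 were untreated, had never been given alcohol and gave whole brain, and no age is given. The labels number separate rats. Whether any wild type shared a litter with a mutant is not stated, so line and deletion cannot be told apart in comparisons with wild type. The p-values below set differences between genotypes against the spread between these rats.

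A ribosome has a small subunit, which binds the mRNA and reads its codons, and a large subunit, which joins the amino acids. Each subunit holds a core of ribosomal RNA and a set of proteins that are, with few exceptions, present in a single copy per particle, so that cells need similar numbers of each. The mRNAs of these proteins belong to the class with a terminal oligopyrimidine tract, a run of C and T letters that begins with C at the transcript's first base and through which growth signalling controls their translation. Neurons hold ribosomes in cell bodies and in dendrites, where local protein synthesis takes place.

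The 30 bases around the annotated start, from 10 bases before it to 20 bases from the first base on, are shown for members on which the results below turn. Sequences are from RefSeq (build GRCr8, transcript strand, 5′ to 3′), and capitals mark a run that begins with C and goes on with at least 4 letters that are each C or T, provided that it begins from 5 bases before to 5 bases into the transcript. Rplp0 lies at chr12:46718371-46718400 (minus strand), Rps15 at chr7:10068096-10068125 (minus), Rpl19 at chr10:83519054-83519083 (plus), Rps27 at chr2:177964587-177964616 (minus) and Rpl39 at chrX:121195877-121195906 (minus). Rpl18 lies at chr1:105325260-105325289 (plus), Rps2 at chr10:14251838-14251867 (plus), Rps16 at chr1:92770648-92770677 (plus) and Rpl26 at chr10:54109682-54109711 (plus). The entry of Rps16 is on the other strand than the locus counted here, which is in another build. In Rps2 a run of C and T that begins with C reaches the first base. It begins more than 5 bases before the transcript and is therefore not marked.
Rplp0: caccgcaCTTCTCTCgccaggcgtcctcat
Rps15: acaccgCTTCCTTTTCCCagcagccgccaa
Rpl19: ccagcaagCTCTTTCCTTTCgctgctgcgt
Rps27: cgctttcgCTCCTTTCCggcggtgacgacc
Rpl39: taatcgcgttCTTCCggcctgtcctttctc
Rpl18: acctggtctagcaggaggcgccatcatggt
Rps2: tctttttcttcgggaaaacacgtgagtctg
Rps16: aaaatcggtcggggtggccccaagctttcc
Rpl26: gtcaacttacagaaccggaagtcgcatgta

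A promoter entry was matched by symbol for 61 members. Such a run, searched on the transcript strand, was held by 29 of them (47.5%), 16 of 37 large and 13 of 24 small subunit genes. Among all 33469 promoter entries of the same length the share was 13.8%. Without 3 entries that lie on another chromosome than the locus counted here, it was 26 of 58 (44.8%). The match is of letters at an annotated start, and a start placed a few bases away from the real one moves the run out of the window. The members with the run had a median level of 50.1 TPM and those without it 48.6 TPM (means over 9 libraries). TPM, a level scaled to the same total in every library, per transcript length and can be set side by side between genes.

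In the data as a whole, libraries held 27489383 to 46975919 expected counts. A multi-exon isoform of the Lrap locus was at 1.88 to 2.57 CPM (reads scaled by library size, not by length) in wild type, 0.998 to 1.11 in heterozygotes and 0.244 to 0.400 in homozygotes, in the order of the labels. Markers of neurons (5 of 5 tested), astrocytes (4 of 5) and oligodendrocytes (5 of 5) were present in every library, with none at 0. Wild-type rat 2 stood apart. Mitochondrial loci took 40.4% of its counts against 14.8 to 28.1% in the others, and its summed markers were the lowest of the 9 for oligodendrocytes (2508 CPM against 3893 to 5572), neurons (928), astrocytes (905), endothelium (57.5), striatum (113), hypothalamus (2.63), microglia (68.1) and cerebellar granule cells (15.8). They were the highest for choroid plexus (524 CPM against 197 to 413) and blood (366 against 94.3 to 239).

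Levels of the members spanned about 3 orders of magnitude, with most within a narrow band. The median member was at 50.0 TPM, with quartiles of 21.8 and 74.1, and 45 of 77 lay between 30 and 100 TPM. The median was 42.1 TPM over the large and 63.4 over the small subunit. Highest was Rps29, a zinc-binding protein of the small subunit head, with 371, 427 and 452 TPM in wild-type rats 1 to 3, 297, 432 and 266 in heterozygotes and 321, 277 and 303 in homozygotes. The order of the libraries depended on the scale, since on CPM Rps29 was highest in homozygous rats 1 and 3, at 130 and 118. Rpl41, which encodes the shortest of the ribosomal proteins, followed with 212, 383 and 264, then 165, 273 and 162, then 143, 161 and 148 TPM in the same order. Wild-type rat 2 was the highest on both scales. The homozygotes were the 3 lowest on TPM, but on CPM Rpl41 was at 110 to 116 in them, within the 93.4 to 178 of the wild types. Rpl37 (190 TPM in the mean), Rps27 (163), Rpl26 (136) and Rps23 (119) were next among the highest members of each subunit.

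**Figure D1:**
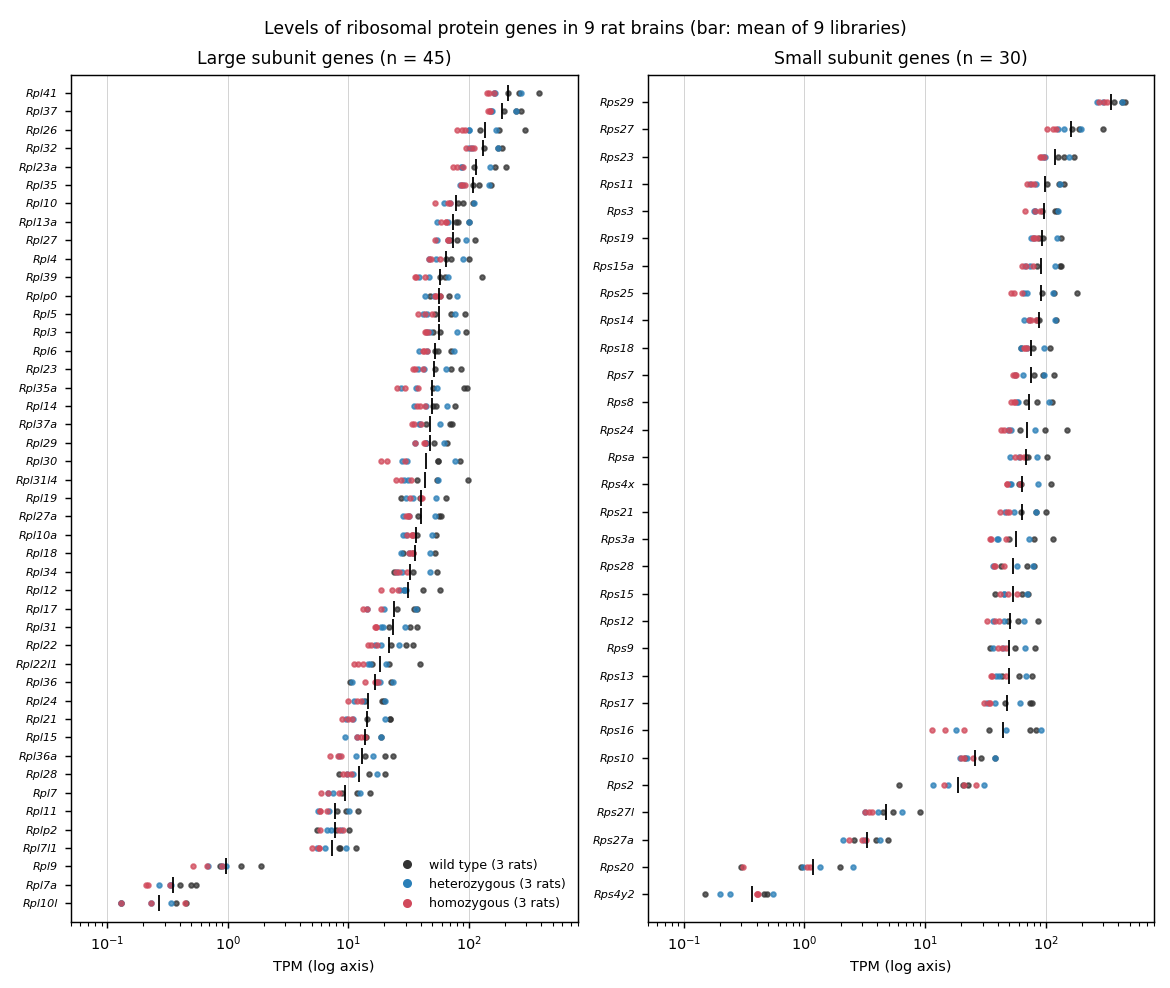
Levels of the ribosomal protein genes reported here in TPM on a log axis, large subunit left and small subunit right, with 1 point per library coloured by genotype and a bar at the mean of 9 libraries. Most genes lie between 30 and 100 TPM, with Rps29 at the top (350 TPM) and Rpl10l at the bottom (0.272 TPM).

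The lowest members were of 2 kinds. Paralogs stood near the floor: Rpl10l, a paralog of Rpl10 known from testis, was at 0.272 TPM and Rps4y2, a copy of Rps4x, at 0.367 TPM. Genes of core ribosomal proteins also appeared there: Rpl7a at 0.350 TPM, Rpl9 at 0.969, Rps20 at 1.17 and Rps27a, made as a fusion with ubiquitin, at 3.27. Rpl7a ran from 0.210 TPM in homozygous rat 1 to 0.550 in wild-type rat 2. Every value was under the mean of Rpl9. Ribosomal protein genes have many near-identical processed copies in the genome, and reads that fit several of them are divided by the counting or given to a copy, so such low values describe the named locus and are uncertain as levels of the gene. The same holds for 4 members whose locus has a single exon and lies on another chromosome than the RefSeq gene of that symbol: Rpl30, Rpl35a, Rpl37 and Rps13.

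Of the 86 names, 9 were under the minimum: Rpl22l2, Rpl30l1, Rpl31l3, Rpl39l, Rpl5l1, Rpl8, Rps10l1, Rps18l1 and Rps6. Rpl8 and Rps6, which encode core proteins, had 0 counts in all 9 libraries at the loci that carry their names. Rps6 is the small subunit protein that S6 kinase phosphorylates. What a locus at 0 says of the gene cannot be told from these tables for the reason just given. Just inside the minimum were Rpl10l, with 10 or more counts in 6 libraries, Rps20 in 7 and Rps4y2 in 8, and just outside were Rpl39l and Rps10l1, with 1 library each. Rplp1, the partner of Rplp2 in the stalk, was not analysed here.

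Among the 6 pairs of a gene and its paralog that were set side by side, 2 paralogs reached a TPM close to that of the parent gene. Rpl22l1, a paralog of the RNA-binding protein Rpl22, made up 44.9% of the TPM of the pair in the mean, with 38.8% in wild-type rat 3 as the lowest and 56.6% in wild-type rat 2 as the highest. By genotype its share was 45.4 ± 9.73% in wild type, 45.4 ± 2.11% in heterozygotes and 43.8 ± 1.69% in homozygotes (SD, n = 3 each). The genotype means lay within the spread of the wild types. Rpl7l1, which resembles Rpl7, made up 44.4% (40.7 to 48.8%) of TPM, where Rpl7 was at 9.34 TPM. This closeness depended on the scale, since on CPM Rpl7 was at 70.3 to 112 and Rpl7l1 at 28.5 to 38.0. Rps27l, a paralog known as a target of p53, made up 2.84% of its pair with Rps27. Rpl10l (0.358%), Rps4y2 (0.585%) and Rpl39l (0.293%) made up under 1%. Outside these pairs, the single-exon locus named Rpl31l4 was at 43.7 TPM, above Rpl31 at 23.4. On CPM the order was reversed, with Rpl31l4 at 16.0 to 44.7 and Rpl31 at 46.4 to 83.7.

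Large and small subunit genes followed each other from library to library. The mean log2 CPM over members (CPM with a pseudocount of 0.5) ran from 4.88 in wild-type rat 1 to 5.29 in homozygous rat 3 for the large subunit and from 4.88 to 5.23 in the same 2 rats for the small subunit. The difference, large minus small, was -0.01, 0.19 and 0.05 in wild-type rats 1 to 3, -0.02, -0.05 and 0.05 in heterozygotes and 0.02, -0.04 and 0.05 in homozygotes. Wild-type rat 2 was thus alone in having large subunit genes above small subunit genes by more than 0.05. By genotype the difference was 0.08 ± 0.10 in wild type, -0.01 ± 0.05 in heterozygotes and 0.01 ± 0.05 in homozygotes (SD, n = 3 each), and the genotypes overlapped. The ratio of the summed TPM of the subunits, large over small, ran from 1.00 in heterozygous rat 1 to 1.14 in wild-type rat 2.

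**Figure D2:**
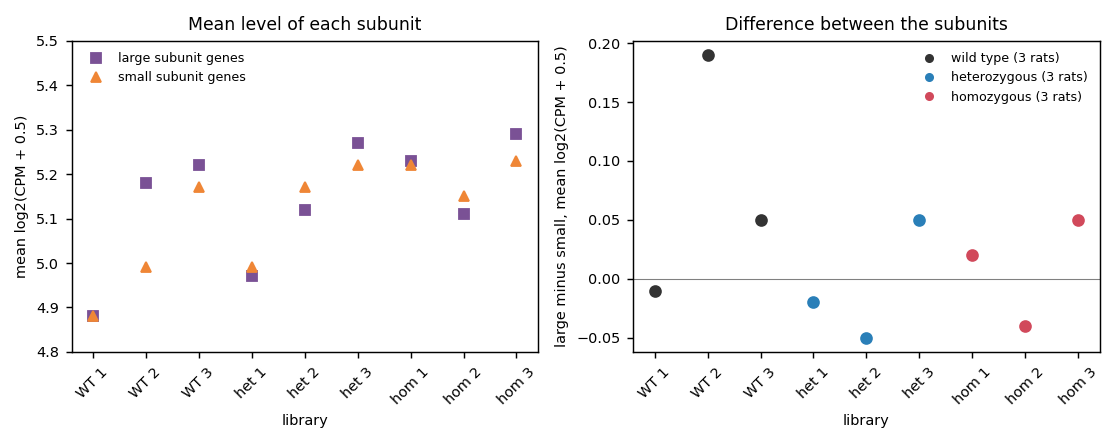
Left, mean log2(CPM + 0.5) over 46 large and 31 small subunit genes in each library. Right, the difference between both means by library, coloured by genotype, which is 0.19 in wild-type rat 2 and between -0.05 and 0.05 in the other 8 libraries.

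The summed share of the members in a library depended on the scale. As a share of all TPM it was 0.581 ± 0.101% in wild type, 0.446 ± 0.144% in heterozygotes and 0.354 ± 0.00856% in homozygotes (SD, n = 3 each). As a share of counts it was 0.448 ± 0.0834%, 0.427 ± 0.0602% and 0.393 ± 0.0231%. Of the counts outside mitochondrial loci and the 10 most abundant loci it was 0.825 ± 0.148%, 0.807 ± 0.0645% and 0.818 ± 0.0333%, so that the genotypes came to lie within each other's spread. Few loci held most of the TPM: the 10 loci of highest TPM held 64.3 to 72.6% of it, and loci with an effective length under 20 bases held 10.6 to 42.5%. Without both groups the members took 1.93 ± 0.312%, 1.65 ± 0.262% and 1.39 ± 0.0866% of the remaining TPM. On this share the homozygotes, at 1.29 to 1.44%, still lay below the wild types, at 1.57 to 2.12%, without overlap. The cause of the lower share on TPM was not tested. Differences between libraries are given below on CPM scaled by TMM factors, and TPM is kept for differences between genes.

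Wild-type rat 2 differed from the other libraries gene by gene, in both directions. The log2 CPM of each member was set against its mean over the other 8 libraries. In wild-type rat 2 the SD of this difference over members was 0.62, against 0.17 to 0.31 in the other libraries, and it was over 0.5 above for 17 members and over 0.5 below for 17. It had the highest of the 9 values for 25 members and the lowest for 26. Over all loci tested, wild-type rat 2 also had the largest SD, 0.53 against 0.24 to 0.35. Over the 8157 loci with a gene name and a mean of 10 CPM or more, its SD was 0.43, against 0.15 to 0.28. Its median difference was -0.32 over these loci and -0.02 over the members. The shares of other loci past the same limits were not counted.

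**Figure D3:**
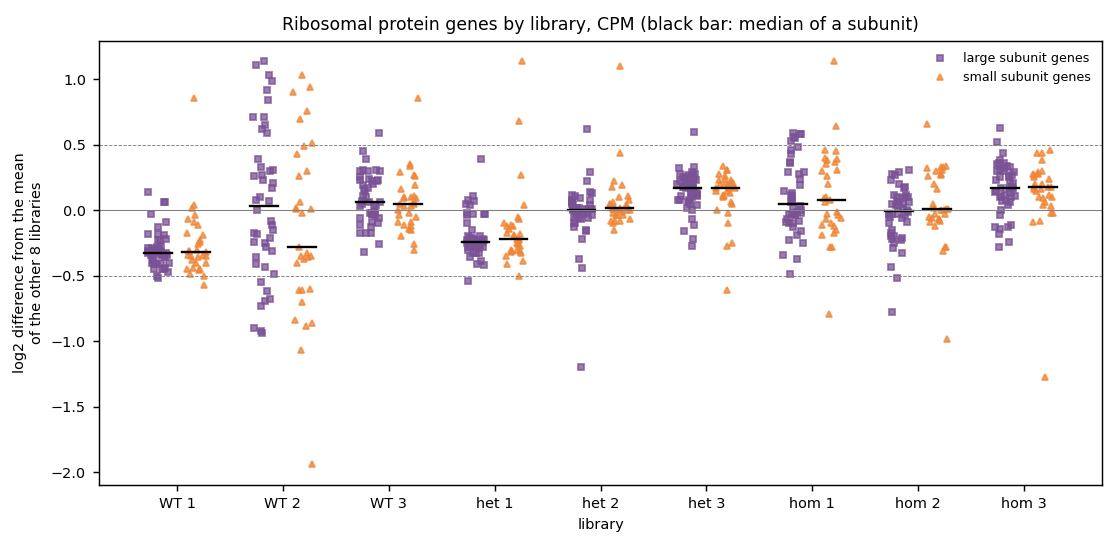
Difference in log2(CPM + 0.5) of each ribosomal protein gene from its mean over the other 8 libraries, by library and subunit, with black bars at the medians and dashed lines at 0.5 and -0.5. Wild-type rat 2 has 17 genes above and 17 below the dashed lines, and the other libraries have at most 8 above and 3 below.

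The members high in this rat included Rpl31l4 (1.14 above the mean of the other libraries on the log2 scale), Rpl39 (1.11), Rps24 (1.03), Rpl26 (1.03), Rpl22l1 (0.99), Rps25 (0.94) and Rps3a (0.90). Rpl39, a small protein in the wall of the exit tunnel, was at 17.5, 42.4 and 17.2 CPM in wild type, 16.2, 20.3 and 24.6 in heterozygotes and 19.9, 21.9 and 18.9 in homozygotes. Rpl26, at the rim of the tunnel, was at 81.0, 197 and 102, then 90.9, 104 and 108, then 90.0, 98.0 and 96.9 CPM. In both genes 1 rat was high and the other 8 lay close together, with no order by genotype. Of the 8 tested genes of the exit tunnel rim (Rpl17, Rpl19, Rpl22, Rpl23a, Rpl26, Rpl31, Rpl35 and Rpl39), 5 were among the 17 high in this rat and 1, Rpl19, among the 17 low.

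The members low in this rat included Rps2 (a log2 difference of -1.94), Rps20 (-1.07), Rpl19 (-0.94), Rpl36 (-0.92), Rpl28 (-0.90) and Rps9 (-0.88). Rps2, a protein near the mRNA entry of the small subunit, was at 13.7, 4.06 and 13.5 CPM in wild type, 10.5, 19.2 and 16.8 in heterozygotes and 29.8, 22.1 and 16.3 in homozygotes. Wild-type rat 2 was the lowest library by a wide margin, and the other wild types lay within the range of the heterozygotes. Across members, the difference in this rat had Pearson's r of -0.12 with the log2 length of the most abundant isoform (77 genes), -0.18 with the GC content of the 300 bases around the start (61 genes) and -0.15 with the number of exons (77 genes). Genes of a library share its depth and preparation, so these are descriptions and carry no p. The part of the mitochondrial share and of the cell markers given above in these differences was not tested.

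No member passed the test between genotypes. Between homozygous and wild-type rats 0 of 77 members passed an adjusted p of 0.05 (edgeR's quasi-likelihood test, Benjamini-Hochberg over 39057 loci), as did 0% of all loci. DESeq2 and limma-voom also called 0 members, where they called 33 and 0 of all 39057 loci. At an unadjusted p under 0.05, 17 members (22.1%) were higher and 3 lower in homozygotes, where the background over all loci was 4.88% higher and 4.25% lower, and over the 16576 tested loci with a gene name 10% higher (1664 loci) and 1.03% lower. The wild-type and homozygous libraries did not overlap for 18 members (23.4%), all higher in homozygotes, against 7.29% of all loci higher and 6.09% lower, or 14.5% and 2.29% of those with a gene name. The median log2 fold change was 0.14 over the members, 0.11 over the large and 0.21 over the small subunit, against -0.07 over all loci and 0.14 over loci with a gene name. A positive fold change was found in 51 of 77 members and in 71.4% of loci with a gene name. The median over members turned to -0.03 with scaling on loci with a gene name, which moved the median of all loci to -0.23, and to -0.61 in limma on log2 TPM, where the median of all loci was -0.34.

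These counts moved with single libraries. The shares of all loci moved as well. Without wild-type rat 1, 10 members were higher and 10 lower at unadjusted p, against 3.38% and 3.39% of all loci. Without wild-type rat 3, 28 were higher and 1 lower, against 12.9% and 13.9%. Without homozygous rat 1, 9 were higher and 1 lower, against 2.51% and 2.82%. Without wild-type rat 2, 15 were higher, 13 of them among the 17 above, and 1 was lower, against 3.01% and 1.92%. Without homozygous rat 2 or 3, 17 and 14 were higher, against 3.57% and 3.80%, and 1 was lower each time, against 4.13% and 2.11%. All 17 kept a positive and all 3 a negative fold change when any 1 library was left out. They were picked by unadjusted p in these same libraries, so a kept sign is no separate test of them. Of the 17 higher, 10 stayed past unadjusted p without wild-type rat 1, 8 without homozygous rat 1 and 17 without wild-type rat 3. Of the 3 lower, 3, 1 and 1 stayed past it in the same order. The median over members was 0.06 without wild-type rat 1 and 0.26 without wild-type rat 3. The mitochondrial share of counts also differed between these genotypes, at 19.6 to 40.4% in wild type and 14.8 to 16.9% in homozygotes, and its part in the counts was not tested.

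**Figure D4:**
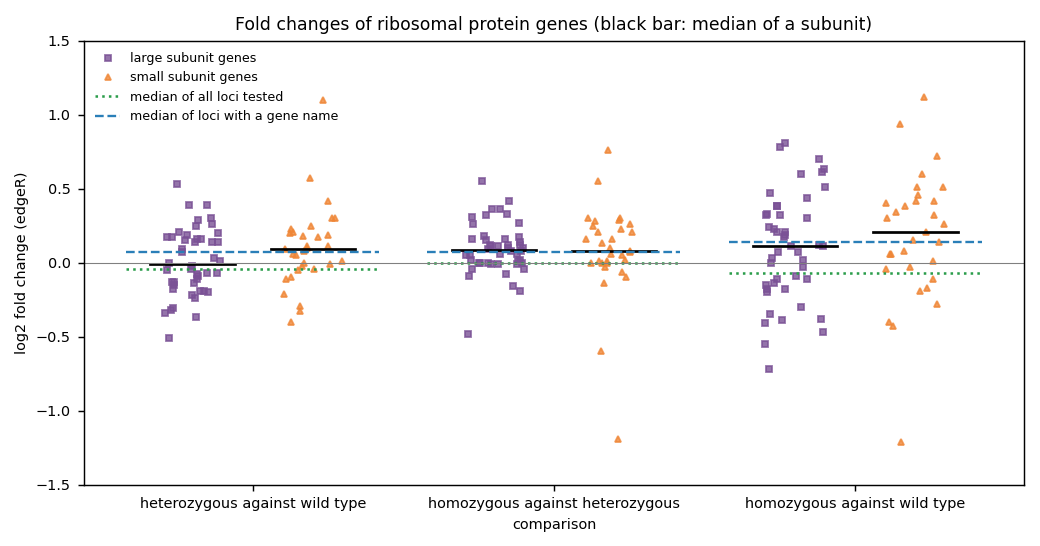
Log2 fold changes from edgeR of 46 large and 31 small subunit genes in each comparison, with black bars at the subunit medians, a dotted line at the median of all loci tested and a dashed line at the median of loci with a gene name. In homozygous against wild type the subunit medians are 0.11 and 0.21, and the lowest point is Rps16 at -1.21.

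The stalk of the large subunit, which recruits the elongation factors, held the member of smallest p. Rplp0, the base of the stalk, had 85.1, 71.8 and 89.4 CPM among wild types, 89.0, 109 and 124 in heterozygotes and 146, 125 and 131 in homozygotes. Every homozygote lay above every other rat, and heterozygous rat 1 overlapped the wild types. By genotype this came to 82.1 ± 9.20, 107 ± 17.6 and 134 ± 10.7 CPM (SD, n = 3 each). Between homozygotes and wild types, Rplp0 had a log2 fold change of 0.70 (SE 0.16, unadjusted p = 7.72e-04, edgeR adjusted p = 0.544, range over alternatives 0.0894 to 0.879). It was 0.39 (SE 0.16) for heterozygous against wild type and 0.32 (SE 0.16) for homozygous against heterozygous, which was 0.18 without heterozygous rat 1, and none of these passed after adjustment. The log2 fold change of homozygous against wild type was -0.08 in limma on log2 TPM and lay between 0.62 and 0.80 with 1 library left out. Rplp0 lies on chromosome 12 at 46791528 to 46794797 (rn6, minus strand), the chromosome that also holds Lrap and 3 other members, Rpl21, Rpl31l4 and Rpl6, whose log2 fold changes of -0.18, -0.38 and 0.32 were not past unadjusted p.

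Rplp2, a protein of the mobile tip of the stalk, had 2.28, 1.74 and 2.66 CPM in wild type, 2.88, 2.49 and 3.39 in heterozygotes and 4.33, 2.85 and 4.53 in homozygotes. The homozygotes lay above the wild types, and homozygous rat 2 lay within the heterozygotes. Its log2 fold change of homozygous against wild type was 0.81 (SE 0.26), which did not pass (edgeR adjusted p = 0.544, 0.0898 to 0.992 over alternatives). The Rplp2 locus held a mean of 116 counts, against 4185 for Rplp0. As for the low members above, its values describe the named locus and are uncertain as levels of the gene. Rpl12, which anchors the stalk base, was at 18.2 ± 5.01, 16.8 ± 3.69 and 16.9 ± 2.82 CPM (SD, n = 3 each), with a log2 fold change of -0.11 (SE 0.24).

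**Figure D5:**
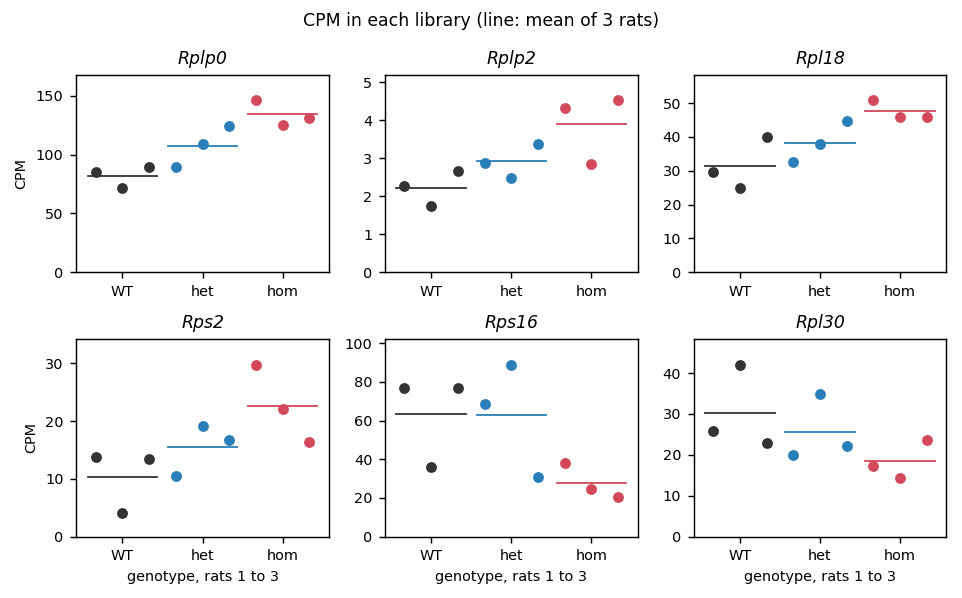
CPM of 6 ribosomal protein genes in each library, by genotype, with a line at the mean of 3 rats and axes that start at 0. In Rplp0, Rplp2, Rpl18 and Rps2 the homozygotes lie above the wild types, and in Rps16 the homozygotes, wild-type rat 2 and heterozygous rat 3 are low.

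Other large subunit genes had the same order of genotypes. Rpl18, mutated in some families with Diamond-Blackfan anaemia, was at 29.5, 24.8 and 39.9 CPM in wild type, 32.5, 37.8 and 44.7 in heterozygotes and 50.8, 45.9 and 46.0 in homozygotes. The homozygotes lay above all other rats, and the heterozygotes overlapped the wild types. Its log2 fold change of homozygous against wild type was 0.60 (SE 0.19), which did not pass (edgeR adjusted p = 0.544, 0.0894 to 0.992 over alternatives). Rpl15, a protein of the large subunit core, was at 41.8 ± 4.43, 46.5 ± 8.22 and 59.7 ± 6.71 CPM (SD, n = 3 each), a log2 fold change of 0.51 (SE 0.17).

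In the small subunit, Rpsa, which lies near the mRNA exit site and is also known as a laminin receptor, was at 95.6, 95.1 and 123 CPM in wild type, 96.3, 106 and 133 in heterozygotes and 141, 143 and 129 in homozygotes. Its homozygotes lay above its wild types, with heterozygous rat 3 among them. Rps2 had the largest positive log2 fold change, 1.12 (SE 0.41), which was 0.74 without wild-type rat 2. Rps15, Rps18, Rps14 and Rps19 had log2 fold changes of 0.60, 0.51, 0.46 and 0.42 without overlap of homozygotes and wild types.

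Rps16 went the other way and varied more than any other member (SD of log2 TPM over 9 libraries 1.12, of log2 CPM 0.79). It encodes a small subunit protein whose C-terminal tail reaches toward the decoding site. Its locus on chromosome 1 at 85405499 to 85408444 (rn6, minus strand) has 5 exons. In CPM, Rps16 read 77.0, 36.2 and 77.1 in wild-type rats 1 to 3, 68.6, 89.0 and 30.9 in heterozygotes and 37.8, 24.4 and 20.3 in homozygotes. Of the 9 libraries, 4 lay between 68.6 and 89.0 and 5 at 37.8 or less, which were every homozygote, wild-type rat 2 and heterozygous rat 3. The homozygotes therefore overlapped both other genotypes. The log2 fold change was -1.21 (SE 0.40, unadjusted p = 0.0117, edgeR adjusted p = 0.544) against wild type and -1.19 (SE 0.40, adjusted p = 1.000) against heterozygotes. Against wild type it was -1.49 without wild-type rat 2 and -1.02 without wild-type rat 3.

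The other members lower at unadjusted p were Rpl30 and Rpl36a, both high in wild-type rat 2. Rpl30 was at 30.3 ± 10.3, 25.7 ± 8.04 and 18.4 ± 4.68 CPM in wild type, heterozygotes and homozygotes (SD, n = 3 each). The genotypes overlapped, and its log2 fold change of -0.72 (SE 0.28) was -0.41 without wild-type rat 2. That of Rpl36a, -0.47 (SE 0.21), was -0.24 without this rat. A locus on the opposite strand overlapped 43 members, and its counts came to over 10% of the member's for 7: Rpl10l, Rpl19, Rpl30, Rpl31, Rpl36a, Rpl37 and Rps4y2. The sources used here do not say whether the counting used the strand, so the values of these genes are uncertain. At the other end of the spread, Rps23, a protein of the decoding centre, had an SD of log2 CPM of 0.12, with 69.7 to 90.4 CPM over all 9 rats. On TPM the smallest SD was that of Rpl7a (0.19), a locus whose level is below the pseudocount.

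Heterozygotes differed little from wild types in these genes. No member passed (edgeR, against 0.00768% of all loci and 0.00603% of those with a gene name). DESeq2 and limma-voom also called 0 members, where they called 18 and 2 of all 39057 loci. At unadjusted p 1 was higher, Rplp0, against 1.37% of all loci and 2.13% of those with a gene name. None was lower (0), against 2.35% and 0.549%. Without wild-type rat 3, 15 were higher, against 7.83% of all loci, and without wild-type rat 1, 5 were lower, against 2.27%. Without wild-type rat 1, wild-type rat 2 or heterozygous rat 3, 0 were higher, against 1.55%, 1.91% and 0.792%, and without heterozygous rat 1, 3 were, against 1.93%. The median log2 fold change was 0.05 over members, -0.01 over the large and 0.09 over the small subunit, against -0.04 over all loci and 0.07 over those with a gene name. It was -0.02 without wild-type rat 1 and 0.19 without wild-type rat 3. Heterozygotes and wild types overlapped in every member, against 2.69% of all loci without overlap that were higher and 3.80% lower (3.75% and 2.12% of those with a gene name). Rps20 had the largest fold change, 1.10 (SE 0.58) on the log2 scale, from 0.563, 0.182 and 1.08 CPM in wild type and 2.15, 0.788 and 0.998 in heterozygotes. Both groups overlapped, and heterozygous rat 1 alone was high. The value was 0.56 without that rat and 1.83 without wild-type rat 3. The fold change of Rpl36 was 0.53 (SE 0.29), 0.25 without heterozygous rat 3 and 0.79 without heterozygous rat 1.

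Between homozygotes and heterozygotes, which share the edited line, no member passed (edgeR, against 0.00256% of all loci). DESeq2 and limma-voom also called 0 members, where they called 6 and 2 of all 39057 loci. At unadjusted p 0 were higher, against 0.512% of all loci and 0.452% of those with a gene name, and 1, Rps16, was lower, against 1.20% and 0.410%. Rps16 was not past unadjusted p without heterozygous rat 2. The number higher was 6 without wild-type rat 2, 4 without heterozygous rat 3, 2 without wild-type rat 3 or homozygous rat 2, and 1 without heterozygous rat 2, against 1.27%, 0.662%, 0.793%, 0.526% and 0.469% of all loci in the same order. The groups did not overlap for 5 members, all higher in homozygotes (6.49%, against 4.71% of all loci higher and 4.12% lower, or 8.19% and 1.89% of those with a gene name), among them Rplp0, Rps4y2, Rpl18 and Rps14. The median log2 fold change was 0.08 over members, 0.09 over the large and 0.08 over the small subunit, 0.00 over all loci and 0.07 over loci with a gene name. It was -0.02 without heterozygous rat 1 and 0.16 without heterozygous rat 3. Rps4y2 was at 0.417, 0.626 and 0.394 CPM in heterozygotes and 0.840, 0.795 and 0.831 in homozygotes, a log2 fold change of 0.76 (SE 0.39) at 22.3 counts per library, beside a far more abundant locus on the opposite strand. The 3 comparisons share their libraries pairwise and are not independent.

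The difference between the subunits was described by genotype and not tested. The median fold change of large minus small subunit genes was -0.10 on the log2 scale for homozygous against wild type, -0.11 for heterozygous against wild type and 0.01 for homozygous against heterozygous. The first was -0.04 and the second -0.03 without wild-type rat 2, the library in which the subunits differed most. Both stayed negative with each library left out in turn. Fewer cells of a type and less RNA per cell cannot be told apart in whole-brain RNA. For blood markers, 0 of 5 had a positive fold change in homozygotes, with summed levels of 144 to 366 CPM in wild type, 94.3 to 196 in heterozygotes and 112 to 145 in homozygotes. For oligodendrocyte markers it was 5 of 5, with 2508 to 5355, 4263 to 4773 and 3893 to 5572 CPM, and none of either list was at 0. Microglia markers were positive in 5 of 5, at 68.1 to 90.4 CPM in wild type, 82.4 to 103 in heterozygotes and 95.2 to 107 in homozygotes, without overlap of homozygotes and wild types. Astrocyte markers were positive in 4 of 4 (905 to 1617, 1187 to 1421 and 1242 to 1646 CPM) and those of cerebellar granule cells in 5 of 5 (15.8 to 239, 55.1 to 104 and 16.7 to 186 CPM), with overlap. Of loci with a gene name, 71.4% were positive and 14.5% were higher without overlap. Markers of neurons were positive in 3 of 5, of endothelium in 3 of 4 and of choroid plexus in 1 of 5. Those of striatum were positive in 4 of 5, of hypothalamus in 5 of 5 and of the pineal gland in 1 of 1. The part of these markers in the values above was not tested.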

How the data were processed

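Total RNA of whole brain was depleted of ribosomal RNA and sequenced as stranded paired-end libraries, per the labels' protocols. The authors deposited RSEM expected counts (estimated counts that need not be whole), TPM and the percent of each gene assigned to an isoform, per the file headers. Loci come from a deposited StringTie assembly named after an Ensembl annotation. The submitters' processing notes name cutadapt, HISAT2, StringTie, RSEM and rn6. The sources used here give no versions and no strand setting for the counting. The isoform percent was not used.

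Expected counts were rounded and fitted over all 9 libraries with edgeR 4.0.16 (filterByExpr, TMM, robust quasi-likelihood, R 4.3.3), with genotype as the only term and Benjamini-Hochberg adjustment over 39057 loci. The common biological coefficient of variation was 0.277. CPM uses TMM-scaled library sizes, and 99 spike-in loci were left out. Log2 levels carry a pseudocount of 0.5. Means are ± SD and fold changes carry their SE. RefSeq sequences and chromosomes (GRCr8) were matched by symbol, 75 of 77 members for the gene and 61 for the promoter.

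The members and gene lists were chosen with earlier results of these data known. The genes named are the stalk proteins, Rpsa and Rps6, the 5 members of smallest p in each comparison, the 3 highest and lowest by TPM per subunit, paralog pairs, members at either side of the count minimum, those of largest and smallest spread, and up to 3 genes of smallest p in each other list. The members high or low in wild-type rat 2, Rps2, Rps15, Rps18, Rps14, Rps19, Rpl30, Rpl36a, Rps13 and Rpl8 were named after their values were seen. A few genes that the rule would name are not reported here.

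Counts over loci between libraries of a genotype differed by a chi-square of at least 27.4 per locus, far over sampling noise. The fits were tested on simulated counts. Alternatives were other size factors, no filter, DESeq2 1.42.0, limma-voom and limma on log2 TPM (limma 3.58.1), annotated isoforms only, summed loci, the replicate number as a block and leaving out each library.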

Additional observations from a re-analysis of the deposited data

How the results depend on the processing

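The 19 alternative settings left the number of members called at 0 in every comparison except in limma on log2 TPM. There, 5 of 77 were called for homozygous against wild type (Rps16, Rpl30, Rpl36a, Rpl35a and Rps25, all lower). In that fit 3210 of all 39057 loci were called, and 45.9% of all loci were lower at unadjusted p, so the calls are not particular to the members. The same setting put the median fold change of members (log2) at -0.61 for homozygous against wild type, -0.34 for heterozygous against wild type and -0.28 for homozygous against heterozygous. TMM on loci with a gene name gave -0.03 for the first. In limma on log2 TPM the values of homozygous against wild type turned to -0.08 for Rplp0, -0.16 for Rpl18, 0.00 for Rplp2 and -0.38 for Rpsa, those of heterozygous against wild type to -0.03 for Rplp0, and those of homozygous against heterozygous to -0.01 for Rpl15 and -0.05 for Rplp0. Over the fits that each left out 1 library, the median of members ran from 0.06 to 0.26, from -0.02 to 0.19 and from -0.02 to 0.16, and large minus small subunit from -0.14 to -0.04, from -0.13 to -0.03 and from -0.02 to 0.02, in the same order of comparisons.

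Large minus small mean log2 TPM, -0.49, -0.57 and -0.54 in wild type, heterozygotes and homozygotes, was 0.08, -0.01 and 0.01 on CPM, -0.61, -0.65 and -0.62 with annotated isoforms only, -0.61, -0.69 and -0.65 without paralogs and -0.68, -0.73 and -0.68 with multi-exon members only, and in heterozygotes and homozygotes -0.50 and -0.47 with a pseudocount of 5. The share of members was 0.448% of counts in wild type and 0.393% in homozygotes, and 0.311% of TPM with annotated isoforms only in homozygotes. The CPM and TPM scales differ by transcript length, and for other changes the cause was not tested.

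Correlations of same-numbered rats ran from -0.108 to 0.269 over all loci tested, and those of differently numbered rats from -0.376 to 0.285. For homozygous against wild type they were 0.014 to 0.269 and -0.364 to 0.164. These values do not settle whether the replicate numbers pair the rats. With the replicate number as a block, 0 members were called, the median of members was 0.14 for homozygous against wild type, and 22 were higher at unadjusted p against 17 without it, while the share of all loci higher went from 4.88% to 7.06%. Multi-exon members and the counts at unadjusted p without single libraries were added after seeing the data. Members at low counts, such as Rpl10l, Rps4y2 and Rps20, have wide errors, and 3 rats a group limit every comparison.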

Other observations

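Genes that work with the ribosome were counted in lists, in homozygous against wild-type rats unless stated, and no list gene passed after adjustment (edgeR, smallest adjusted p in any list 0.544). Of the ribosomal proteins whose names do not follow the Rpl or Rps pattern, 3 of 4 tested were higher at unadjusted p, among them Rack1, a signalling scaffold on the small subunit (85.2, 94.4 and 110 CPM in the means of wild type, heterozygotes and homozygotes, log2 fold change 0.37) and Fau (54.5, 60.5 and 69.2 CPM, 0.34). In the 5S particle, Rpl5 and Rpl11, which bind Mdm2 when ribosome assembly is disturbed, had log2 fold changes of 0.07 and 0.11. Of 17 tested genes known from Diamond-Blackfan anaemia, 4 were higher and 0 lower (median 0.11). The stalk list had 2 of 3 higher (median 0.70), the exit tunnel rim 1 of 8 (median -0.19) and the paralogs 1 of 5 (median 0.00). The background at unadjusted p was 4.88% higher and 4.25% lower over all loci. Over loci with a gene name, which all list genes have, it was 10% higher and 1.03% lower, with 71.4% positive and a median of 0.14.

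Of 10 elongation factor genes, 2 were higher and 9 had a positive fold change (median 0.24). Eef2, which moves the ribosome along the mRNA, had means of 447, 570 and 706 CPM (log2 fold change 0.66, SE 0.20), and Eif5a, which helps the ribosome past stalling sequences, 71.3, 83.6 and 89.6 CPM (0.33). Of 36 tested initiation factors, 3 were higher (Eif4h 0.48, Eif6 0.40, Eif3k 0.41; median 0.09), a share of 8.33% that is under the 10% of loci with a gene name. Of 15 other mRNAs with a terminal oligopyrimidine tract, 1 was higher (Eef2) and 1 lower, Hnrnpa1, a splicing factor (68.4, 57.2 and 45.5 CPM, -0.59; median -0.07). Of 38 ribosome assembly genes, 3 were higher (Dkc1 1.25, Rrp9 0.59, Bop1 0.51; median 0.07), or 7.89%, also under that share. Of 17 signalling genes, 3 were higher (Maf1 0.39, Tsc2 0.36, Mycn 0.77; median 0.17). Of 15 chaperones and nascent chain factors, 1 was higher (Sec61a1 0.44; median 0.10).

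The mitochondrial ribosome, a separate particle whose proteins are made in the cytosol, had 66 tested genes. Of these, 6 were higher and 0 lower at unadjusted p, 52 had a positive fold change, and the median was 0.21. The shares of 9.09% higher and 78.8% positive are near the 10% and 71.4% of loci with a gene name. Mrpl14 had means of 3.41, 4.25 and 6.29 CPM (log2 fold change 0.88, SE 0.23), Mrpl28 9.22, 11.2 and 13.4 (0.54) and Mrpl12 12.3, 14.3 and 17.9 (0.53), and none passed (edgeR adjusted p = 0.544 each). In heterozygous against wild type the median was 0.09 and 0 of 66 were higher at unadjusted p.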
